A study of Sus scrofa with 10 samples.

Results

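The matrix metalloproteinases, the ADAMTS proteases, the ADAMTS-like proteins and the tissue inhibitors of metalloproteinases were described together in pig testis and in grafts made from pig testis cells. Members were the rows of the deposited table whose gene name is MMP or ADAMTS followed only by a number, ADAMTSL followed by 1 digit, or TIMP1 to TIMP4. The name rule matched 47 of the 27376 rows. MMP1 and MMP7 had no count in any library, which left 45 members of 22701 rows with counts: 17 MMP, 19 ADAMTS, 5 ADAMTSL and 4 TIMP genes. The rule itself uses names alone, but the families were chosen with earlier results of these data known.

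MMPs and ADAMTS proteases are zinc-dependent enzymes that cut proteins of the extracellular matrix. MMPs act on collagens, gelatin, basement membrane proteins and many cell surface proteins, and ADAMTS proteases act mainly on proteoglycans, procollagens and microfibril proteins. TIMPs bind the active site of these enzymes and block it, and TIMP2 also takes part, with membrane-bound MMP14, in the activation of the MMP2 precursor. ADAMTS-like proteins have the accessory domains of ADAMTS proteases without the protease domain. In the testis, such enzymes and inhibitors act on the matrix around the seminiferous tubules and on the junctions that germ cells cross.

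PolyA RNA of pig (Sus scrofa) was counted from its 3' ends in 10 libraries, and the series asks whether germ cells influence how testis tissue is remodelled and develops. FO grafts (4 libraries) came from testicular fibroblasts only, and GF grafts (4 libraries) from germ cells together with testicular fibroblasts. Both were made by injecting the cells, in high concentrate Matrigel, into the dorsal skin of SKID mice (spelled as in the labels), and both were taken after 6 months. The control group (2 libraries) is testis tissue whose titles say 5D, a code left without explanation, so its age is not known here. The control labels carry the graft growth protocol and the cell type of GF as well, so groups were read from the titles. The labels do not say whether replicates are separate animals, cultures or grafts, or whether cells were pooled, so p-values measure the spread between these samples, which may be technical. Counts are on pig genes, and cells of the mouse host may be missed or counted in part.

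Total counts were 5844944 and 7013911 in control testis, 4033509 to 4887878 for FO and 2915534 to 4917325 for GF. Levels are counts per 1000000 (CPM) with TMM scaling, and 3 counts, the limit that a count of 0 allows, came to 0.453 to 1.04 CPM in a library (counting error only). GF 3 and GF 4 lay farthest from the other libraries on the first principal component (46.3% of the variance) and had the lowest totals. The summed level of skeletal muscle markers reached 729 CPM for FO 1 and 192 CPM for GF 3, and the other libraries had 2.42 to 25.4 CPM. Results are therefore also given without these libraries where that changes them. The FO libraries, labelled as fibroblasts alone, had 3894 to 7715 CPM of the Sertoli cell marker CLU and 454 to 713 CPM of the other 7 Sertoli cell markers together. Among these 7, AMH had 5.85 to 31.5 CPM in FO, against 446 and 521 CPM in control testis. SOX9 had 213 to 281 CPM in FO, against 198 and 174 CPM in control testis. In every FO library AMH, INHA, DHH and GATA4 lay below both control libraries, and SOX9 and AMHR2 above both. Leydig cell markers summed to 477 to 3706 CPM in FO (14021 and 16640 CPM in control testis). Germ cell markers summed to 1.70 to 6.74 CPM in FO, to 437 to 2229 CPM in GF and to 40.8 and 41.7 CPM in control testis. In bulk samples, fewer cells of a type and less RNA per cell cannot be told apart.

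Between the 2 kinds of graft, protease and inhibitor genes were mostly lower in GF. Of 30 members with enough counts to be tested, 13 fell and 3 rose in GF against FO, at a Benjamini-Hochberg adjusted p under 0.05 in edgeR's quasi-likelihood test. Over all 13782 genes tested, 13% fell and 17.6% rose, 30.5% in either direction, against 43.3% and 10% of the members. The members' median log2 fold change was -0.97, and that of all genes tested was -0.02. The 13 that fell were the inhibitors TIMP1 and TIMP3, the MMPs MMP2, MMP16, MMP24 and MMP28, the proteases ADAMTS1, ADAMTS3, ADAMTS5, ADAMTS8, ADAMTS15 and ADAMTS19, and ADAMTSL1. The 3 that rose were MMP11, MMP15 and ADAMTSL2. The 4 GF libraries did not overlap the 4 FO libraries for 16 members (53.3%), and for 36% of all genes tested. Another 15 members had too few counts to be tested in this comparison, and their counts are given below. Without GF 3 and GF 4, 14 members fell and 1 rose (36.1% of all genes called), and without FO 1 and GF 3, 6 fell and 0 rose (16.6% of all genes called; edgeR gave 2 members higher at an unadjusted p under 0.05 there, and DESeq2 on all graft libraries called 4 higher). Leaving out a single library left 8 to 15 members lower and 1 to 3 higher, with 20.1 to 34.2% of all genes called. The lower counts, 8 each, came without FO 1 or without FO 4 (20.1 and 22.7% of all genes called). Only 1 member rose without FO 1 or without FO 2 (20.1 and 22.4% of all genes called). The calls of TIMP1, MMP2, ADAMTS1 and ADAMTS19 were kept under each of the 20 alternatives run for this comparison. A test against a fold of 1.5 in place of no change ended the calls of TIMP3, MMP11, MMP16, MMP24, MMP28, ADAMTS3, ADAMTS15 and ADAMTSL1 (adjusted p from 0.0504 to 0.171).

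**Figure D1:**
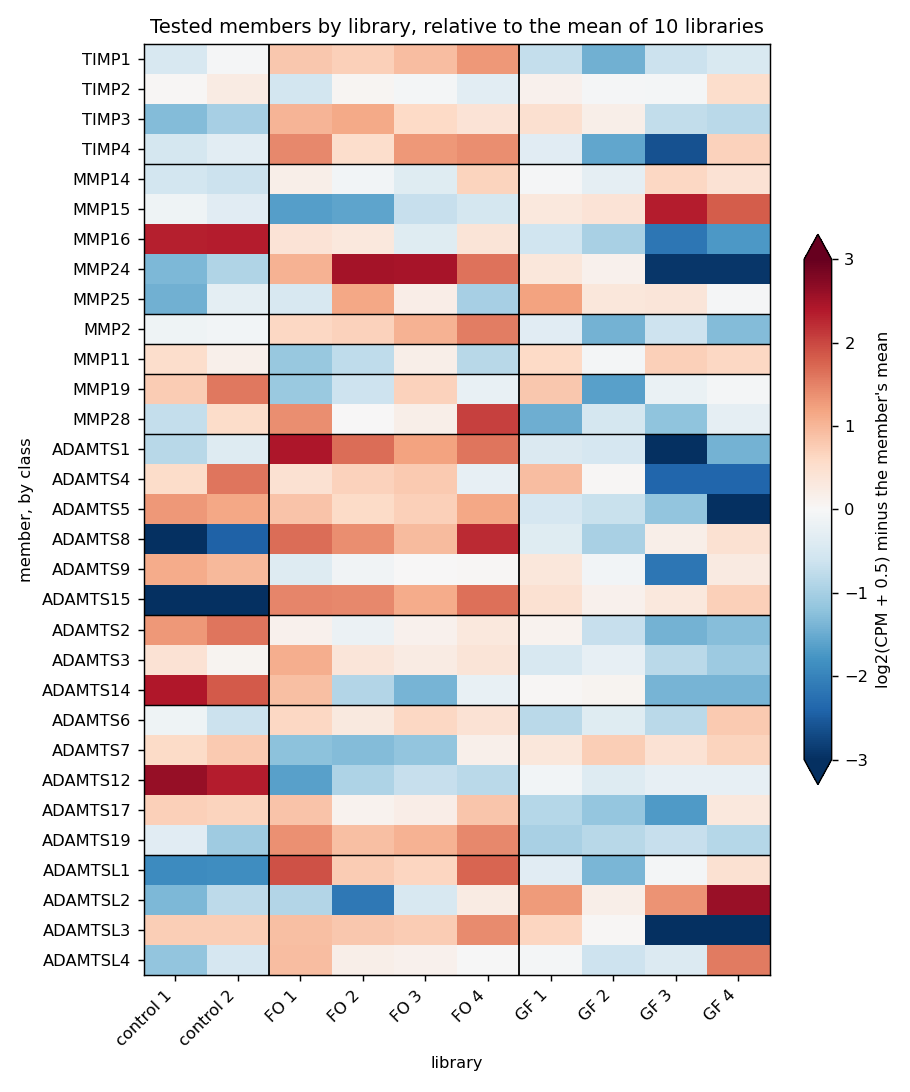
Heat map of the 31 tested members (rows, by class) in the 10 libraries (columns), as log2(CPM + 0.5) minus each member's mean over the libraries, so red is above and blue below that mean. The FO columns are mostly red and the GF columns mostly blue, with GF 3 and GF 4 darkest for several members. MMP11, MMP15, ADAMTS7 and ADAMTSL2 are mostly the other way round, and ADAMTS12 is blue in both grafts.

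With both control libraries in the fit, members in FO differed from control testis mostly upward. In GF they differed in both directions, at shares near those of all genes. In FO, 9 of 31 tested members rose (8.12% of all 15877 genes tested rose) and 3 fell (10.6% of all genes), with a median log2 fold change of 0.56 for the members and -0.04 for all genes. In GF, 4 of 31 rose (14% of all genes) and 5 fell (11.8% of all genes), with a median of -0.19 for the members and 0.03 for all genes. These shares of called members, 38.7% in FO and 29% in GF, stood beside 18.7% and 25.8% of all genes. The FO libraries did not overlap the control libraries for 22 members (71%, against 58.7% of all genes), and the GF libraries did not for 18 (58.1%, against 47.2%). Both comparisons use the same 2 control libraries. Leaving out control 1 or control 2 leaves only 1 control library. Fewer members were then called higher in FO and in GF, and fewer of all genes were called as well. Without GF 3 and GF 4 in the fit, 12 members rose and 7 fell in FO against control testis (42.5% of all genes called), and 5 rose and 8 fell in GF (37.1%). The calls of ADAMTS12, ADAMTS15, ADAMTS8 and MMP16 in FO and of ADAMTS12, ADAMTS15, ADAMTS2, ADAMTS5 and MMP16 in GF were kept under each alternative run. A test against a fold of 1.5 ended the calls of TIMP1, MMP2, MMP24 and ADAMTS2 in FO (adjusted p from 0.0651 to 0.141) and of ADAMTS17 and ADAMTSL1 in GF (adjusted p = 0.109 and 0.0854).

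Set side by side, the 3 comparisons gave a few recurring patterns, which share libraries and are therefore not independent. The commonest among called members, with 6 genes, was higher in FO than in control testis, lower in GF than in FO and not called between GF and control testis: TIMP1, TIMP3, MMP2, MMP24, ADAMTS1 and ADAMTS19. Their FO calls rest on 2 control libraries, and the losses when 1 is left out are given with each gene. Not called does not mean an equal level: all GF libraries lay above both control libraries for TIMP3 and below them for MMP2. ADAMTS8, ADAMTS15 and ADAMTSL1 were higher in both grafts than in control testis and lower in GF than in FO. MMP16 was lower in both grafts and lower in GF than in FO, and ADAMTS5 was lower in GF than in either other group. ADAMTS2 and ADAMTS12 were lower in both grafts than in control testis, and ADAMTS17 was called lower in GF against control testis and in no other comparison. ADAMTSL2 was higher in GF than in either other group. Of the 30 members tested in all 3 comparisons, 11 were called in none, among them TIMP2 and MMP14.

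**Figure D2:**
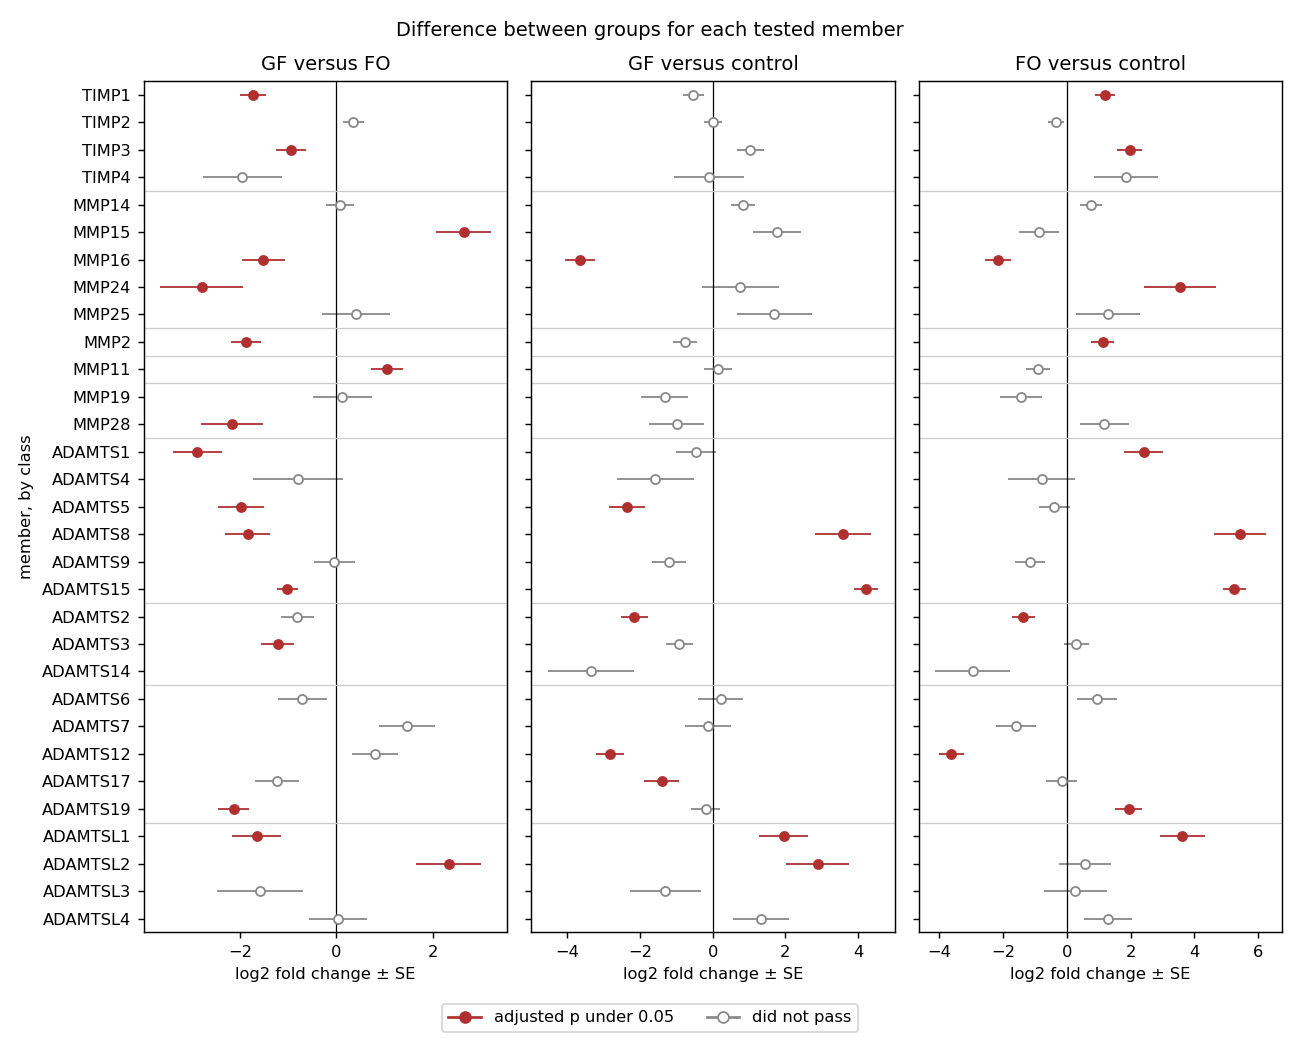
Log2 fold change with its SE for each tested member (rows, by class) in GF against FO, GF against control testis and FO against control testis, with filled red points for an adjusted p under 0.05. Filled points lie mostly left of 0 in GF against FO (13 of 16) and mostly right of 0 in FO against control testis (9 of 12).

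Among the inhibitors, TIMP1 and TIMP3 were lower in GF than in FO, while TIMP2, which made up most of the TIMP counts, was not called. TIMP1, a soluble inhibitor of most MMPs, had 53.9 and 73.4 CPM in control testis, 133, 123, 144 and 186 CPM in FO and 45.9, 27.6, 48.3 and 55 CPM in GF. Every FO library lay above every control and GF library. TIMP1 fell in GF against FO (log2 fold change -1.73 ± 0.27, adjusted p = 8.46e-04) and was higher in FO than in control testis (log2 fold change 1.20 ± 0.32, adjusted p = 0.0174). The call against control testis was lost without control 1 or control 2 (adjusted p = 0.22 and 0.0908). Between GF and control testis TIMP1 was not called (log2 fold change -0.53 ± 0.30, adjusted p = 0.205), except without GF 3 and GF 4 (adjusted p = 0.0256), where it was lower in GF. TIMP3, which binds to the matrix and also inhibits ADAMTS proteases, had 93.3 and 114 CPM in control testis, 463, 507, 345 and 304 CPM in FO and 321, 259.8, 137 and 131 CPM in GF. FO libraries were again the highest, but GF 1 lay above FO 4. TIMP3 fell in GF against FO (log2 fold change -0.93 ± 0.31, adjusted p = 0.0392). That call was lost without FO 1, FO 2, FO 3, GF 3 or GF 4, without both GF 3 and GF 4, without both FO 1 and GF 3 or with total-count scaling (adjusted p from 0.0592 to 0.198). In FO it was higher than in control testis (log2 fold change 1.97 ± 0.40, adjusted p = 0.00426). It was not called without control 1 or control 2 (adjusted p = 0.0781 and 0.0559). GF libraries all lay above the control libraries for TIMP3, without a call (log2 fold change 1.04 ± 0.38, adjusted p = 0.0601); it was called without GF 3 or GF 4, without both GF 3 and GF 4, without both FO 1 and GF 3, in DESeq2's Wald test or with RLE factors (adjusted p from 1.92e-04 to 0.0478).

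TIMP2, the inhibitor that also takes part in MMP2 activation, had 904 and 1036 CPM in control testis, 595, 914, 842 and 708 CPM in FO and 964, 854, 842 and 1254 CPM in GF. The groups overlapped in all 3 comparisons, and none was called: the log2 fold change was 0.36 ± 0.22 for GF against FO (adjusted p = 0.239). TIMP2 held 85.9 and 84.6% of the TIMP CPM in control testis, 49.7, 59.1, 62.9 and 58.8% in FO and 72.4, 74.8, 82 and 86.8% in GF. Its share was lower in every FO library than in any other library. TIMP4, the least abundant inhibitor, had 1.65 and 1.96 CPM in control testis, 7.8, 3.92, 7.13 and 7.63 CPM in FO and 1.93, 0.542, 0 and 4.49 CPM in GF. It was not called between GF and FO (log2 fold change -1.95 ± 0.82, adjusted p = 0.0908), but was called lower in GF without GF 4, without both GF 3 and GF 4 or in DESeq2's Wald test (adjusted p from 0.00769 to 0.0433), with a log2 fold change of -2.86 without GF 4. Against control testis TIMP4 was not called in FO (log2 fold change 1.86 ± 1.00, adjusted p = 0.226), although it was called higher without both GF 3 and GF 4 or in a fit of these 2 groups alone (adjusted p = 0.0137 and 0.00471).

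**Figure D3:**
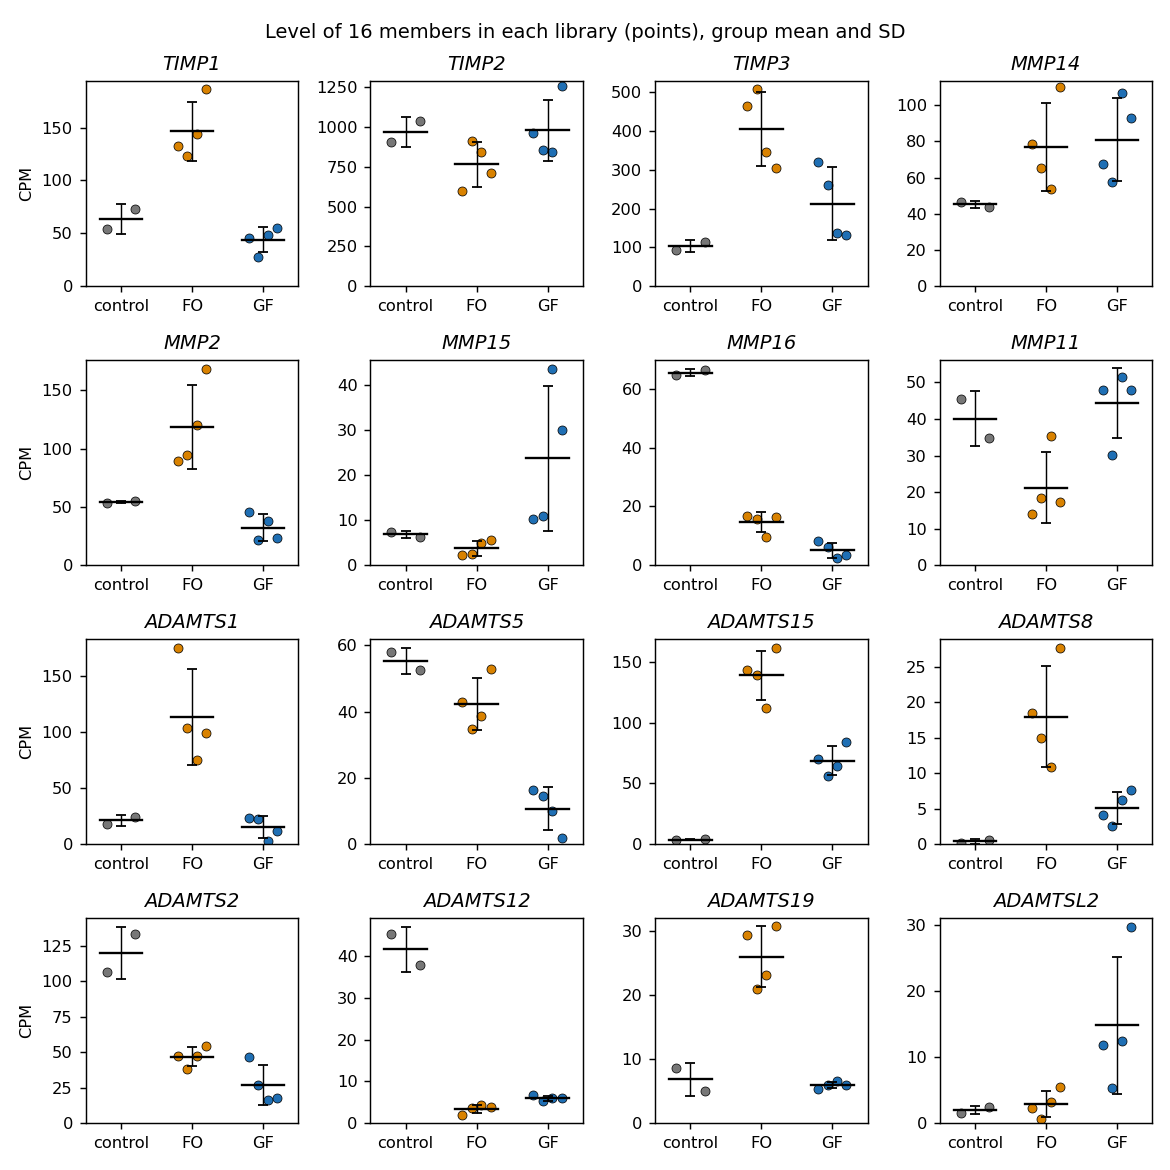
CPM of 16 members in each library (points) for control testis (n = 2), FO (n = 4) and GF (n = 4), with the group mean as a bar and the SD as whiskers; each panel has its own axis from 0. TIMP1, MMP2, ADAMTS1 and ADAMTS19 stand highest in all FO libraries, MMP15 in all GF libraries and MMP16, ADAMTS2 and ADAMTS12 in both control libraries.

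The gelatinases and membrane-type MMPs moved in different directions. MMP2 (gelatinase A), which cuts gelatin and basement membrane collagen, had 53.6 and 55.1 CPM in control testis, 89.5, 94.8, 120.2 and 169 CPM in FO and 45.7, 21.7, 37.6 and 23.5 CPM in GF. The 3 groups did not overlap, with FO highest and GF lowest. MMP2 fell in GF against FO (log2 fold change -1.88 ± 0.31, adjusted p = 0.0013), and was higher in FO than in control testis (log2 fold change 1.12 ± 0.36, adjusted p = 0.0453). The call against control testis was lost without control 1, control 2, FO 1, FO 2, FO 3 or FO 4, with total-count scaling or with counts thinned to the lowest total (adjusted p from 0.0532 to 0.258). Between GF and control testis it was not called (log2 fold change -0.76 ± 0.34, adjusted p = 0.117), except without GF 1 (adjusted p = 0.0421). MMP14, the membrane-bound activator of MMP2, had 46.5 and 44 CPM in control testis, 78.3, 65.5, 53.7 and 110.0 CPM in FO and 67.3, 57.4, 107 and 92.7 CPM in GF. MMP14 was called in none of the 3 comparisons, with a log2 fold change of 0.08 ± 0.29 for GF against FO (adjusted p = 0.855); it was called higher in FO than in control testis without both GF 3 and GF 4 or in a fit of these 2 groups alone (adjusted p = 0.0161 and 0.0182). MMP9 (gelatinase B), which neutrophils and macrophages secrete, had 4 and 4 counts in control testis, 8, 3, 11 and 0 in FO and 0, 0, 0 and 0 in GF. MMP9 was not tested, and the largest of these counts came to 2.31 CPM. Neutrophil markers summed to 21.8 and 31.3 CPM in control testis, 10.7 to 31.6 in FO and 2.07 to 5.79 in GF. S100A8 made up most of these sums in FO (9.02 to 28.4 CPM, 0 to 5.14 in GF), CXCR2 was at 0 in all graft libraries, S100A9 and CSF3R were at 0 in all GF and in 3 of 4 FO libraries, and MPO had 0.643 to 3.11 CPM in GF and 0 to 0.21 CPM in FO. Their part in the MMP9 counts was not tested.

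MMP15, another transmembrane MMP, had 7.42 and 6.35 CPM in control testis, 2.23, 2.39, 4.82 and 5.51 CPM in FO and 10.3, 11, 43.5 and 30.1 CPM in GF. Every GF library lay above every other library, and GF 3 and GF 4 were the highest. MMP15 rose in GF against FO (log2 fold change 2.65 ± 0.57, adjusted p = 0.00482). The log2 fold change was 1.48 without GF 3 and GF 4, and 1.99 without FO 1 and GF 3, where the call was lost (adjusted p = 0.0502). Against control testis MMP15 was not called in GF (log2 fold change 1.77 ± 0.66, adjusted p = 0.0626), except without GF 1 or GF 2 or in DESeq2's Wald test (adjusted p from 0.0214 to 0.0388). MMP16, a transmembrane MMP of the same group, had 64.6 and 66.3 CPM in control testis, 16.7, 15.7, 9.65 and 16.5 CPM in FO and 8.14, 6.14, 2.42 and 3.46 CPM in GF. The order ran from control testis to FO to GF with no overlap, and MMP16 was lower in FO than in control testis (log2 fold change -2.16 ± 0.40, adjusted p = 0.00233) and lower still in GF (log2 fold change -3.65 ± 0.42, adjusted p = 9.19e-05). GF was also lower than FO (log2 fold change -1.51 ± 0.46, adjusted p = 0.0258). The call between the grafts was lost without FO 1, FO 2 or FO 4, without both FO 1 and GF 3 or with total-count scaling (adjusted p from 0.0536 to 0.104). MMP24, known mainly from nervous tissue, had 0.989 and 1.51 CPM in control testis, 7.25, 20.9, 20.3 and 11.2 CPM in FO and 4.29, 3.61, 0 and 0 CPM in GF. Its counts were 0 in GF 3 and GF 4. MMP24 fell in GF against FO (log2 fold change -2.79 ± 0.86, adjusted p = 0.0279), with -1.93 without GF 3 and GF 4. The call did not hold without FO 2, FO 3 or FO 4 or without both FO 1 and GF 3 (adjusted p from 0.0547 to 0.0856). It was higher in FO than in control testis (log2 fold change 3.55 ± 1.14, adjusted p = 0.0446). This call was lost without control 1, control 2, FO 1, FO 2, FO 3 or FO 4, with total-count scaling or with counts thinned to the lowest total (adjusted p from 0.0537 to 0.281). The thinned value was 2.82. Between GF and control testis it was called, among the libraries left out, without GF 3 and GF 4 (adjusted p = 0.0454), with a log2 fold change of 1.62. MMP25 had 2 and 9 counts in control testis, 4, 21, 10 and 3 in FO and 22, 13, 7 and 5 in GF and was not called, and MMP17, with at most 7 counts in a library, was not tested.

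Of the secreted MMPs outside these groups, MMP11 rose and MMP28 fell in GF against FO. MMP11, a stromelysin, which is activated inside the cell by furin, had 45.5 and 34.8 CPM in control testis, 13.9, 18.3, 35.4 and 17.4 CPM in FO and 48, 30.1, 51.4 and 48.1 CPM in GF. GF 1, GF 3 and GF 4 lay above every FO library, and GF 2 was below FO 3. MMP11 rose in GF against FO (log2 fold change 1.06 ± 0.34, adjusted p = 0.0317). That call was lost without FO 1, FO 2, FO 4, GF 1 or GF 3, without both GF 3 and GF 4 or without both FO 1 and GF 3 (adjusted p from 0.0518 to 0.164). It was kept without GF 2, the lowest of the GF libraries. It was not called against control testis in GF (log2 fold change 0.14 ± 0.38, adjusted p = 0.811) or in FO (log2 fold change -0.91 ± 0.37, adjusted p = 0.106), but was called lower in FO without FO 3, without both GF 3 and GF 4 or in a fit of these 2 groups alone (adjusted p from 0.0262 to 0.0395). MMP28 (epilysin), an MMP known from testis and skin, had 2.14 and 5.89 CPM in control testis, 10.9, 3.92, 4.4 and 17.4 CPM in FO and 1.07, 2.53, 1.38 and 3.11 CPM in GF. FO 1 and FO 4 were high, and all GF libraries lay below all FO libraries. MMP28 fell in GF against FO (log2 fold change -2.16 ± 0.64, adjusted p = 0.0245). It was not called without FO 1 or FO 4, without both FO 1 and GF 3 or with counts thinned to the lowest total (adjusted p from 0.0694 to 0.12). MMP19 had 77 and 149 counts in control testis, 11, 21, 57 and 29 in FO and 61, 11, 18 and 20 in GF. MMP19 was not called, except lower in FO than in control testis in a fit of these 2 groups alone (adjusted p = 0.018).

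The collagenases, the other stromelysins and their neighbours were close to silent. On chromosome 9 of Sscrofa11.1, between 33214590 and 33616700, RefSeq lists 8 members in a row with no other protein-coding gene between them: MMP7, MMP20, MMP27, MMP8, MMP1, MMP3, MMP12 and MMP13. Together they had 23 counts among 46333443 in the 10 libraries, 10 in control testis, 12 in FO and 1 in GF. The highest single value was 4 counts, for MMP12 in FO 1. The cluster holds the interstitial collagenases MMP1, MMP8 and MMP13, and at this depth no difference between the groups was detectable for any of its genes.

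The name rule leaves out 3 related genes whose names do not match it, and they were picked after their values were seen. MMP23B, a membrane-anchored MMP known from reproductive tissues, had 6.1 and 6.95 CPM in control testis, 46.8, 41.1, 37.1 and 43.6 CPM in FO and 69.4, 70.8, 152 and 283 CPM in GF. The 3 groups did not overlap, and GF 3 and GF 4 were the highest. MMP23B was higher in GF than in FO (log2 fold change 1.78 ± 0.42, adjusted p = 0.00776), with 0.73 without GF 3 and GF 4 and no call without FO 1 and GF 3 (adjusted p = 0.0553). It was also higher in both grafts than in control testis (log2 fold change 4.45 ± 0.60, adjusted p = 2.58e-04 in GF, log2 fold change 2.69 ± 0.55, adjusted p = 0.00453 in FO), with 3.41 in GF without GF 3 and GF 4. In FO that call was lost without control 1 or control 2 (adjusted p = 0.0648 and 0.0612). THSD4, also known as ADAMTSL6, fell in GF against FO (log2 fold change -2.22 ± 0.31, adjusted p = 5.14e-04). In GF it was also lower than in control testis (log2 fold change -1.74 ± 0.33, adjusted p = 0.00218). Between FO and control testis THSD4 was not called (adjusted p = 0.381). PAPLN (papilin), with at most 5 counts in a GF library, was not tested between the grafts. Against control testis PAPLN was lower in GF (log2 fold change -2.825 ± 0.90, adjusted p = 0.0342) and not called in FO (adjusted p = 0.33). It had enough counts for that test only with the control libraries, where its mean was highest, so the call is no independent support. No alternative was run for THSD4 or PAPLN against control testis.

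ADAMTS1, ADAMTS4, ADAMTS5, ADAMTS8, ADAMTS9, ADAMTS15 and ADAMTS20 form the group known for cutting versican and aggrecan. Of these, 4 of the 6 that were tested fell in GF against FO, beside 43.3% of all tested members and 13% of all genes tested. ADAMTS1, known for versican cleavage in the ovary, had 17.8 and 24.6 CPM in control testis, 175, 104, 74.9 and 99.6 CPM in FO and 23.6, 22.4, 2.76 and 11.8 CPM in GF. Every FO library lay above every other library, and GF 3 was the lowest. ADAMTS1 fell in GF against FO (log2 fold change -2.88 ± 0.50, adjusted p = 0.00159), with -2.27 without FO 1 and GF 3. It was higher in FO than in control testis (log2 fold change 2.41 ± 0.61, adjusted p = 0.0144). The call did not hold without control 1 or control 2 (adjusted p = 0.159 and 0.109). ADAMTS5, the main aggrecanase of cartilage, had 58 and 52.6 CPM in control testis, 42.9, 34.8, 38.6 and 53 CPM in FO and 16.3, 14.4, 10 and 1.73 CPM in GF. All GF libraries lay below all others, and GF 4 was the lowest. ADAMTS5 fell in GF against FO (log2 fold change -1.97 ± 0.47, adjusted p = 0.00888) and was lower in GF than in control testis (log2 fold change -2.35 ± 0.50, adjusted p = 0.0044). The call between the grafts was lost without FO 1 and GF 3 (adjusted p = 0.061). Between FO and control testis it was not called (log2 fold change -0.39 ± 0.50, adjusted p = 0.647).

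ADAMTS15, another versican-cutting protease, had 3.46 and 3.78 CPM in control testis, 143, 139, 112 and 161 CPM in FO and 70.1, 55.6, 64.2 and 84.4 CPM in GF. Every graft library lay above both control libraries, and every FO library above every GF library. ADAMTS15 was higher in FO than in control testis (log2 fold change 5.25 ± 0.35, adjusted p = 2.94e-06), higher in GF (log2 fold change 4.23 ± 0.33, adjusted p = 6.90e-06) and lower in GF than in FO (log2 fold change -1.01 ± 0.22, adjusted p = 0.00552). It held 0.938 and 1.00% of the ADAMTS CPM in control testis, 25.7, 32.3, 28.8 and 30.9% in FO and 29.1, 28.8, 44.2 and 38.9% in GF. ADAMTS8 had 0.165 and 0.604 CPM in control testis, 18.4, 15, 10.9 and 27.5 CPM in FO and 4.07, 2.53, 6.21 and 7.61 CPM in GF. The same order held, from counts of only 1 and 4 in control testis. ADAMTS8 was higher in FO than in control testis (log2 fold change 5.43 ± 0.81, adjusted p = 5.27e-04) and higher in GF (log2 fold change 3.59 ± 0.78, adjusted p = 0.005), where the call was lost without control 1 or in a fit of these 2 groups alone (adjusted p = 0.0799 and 0.0588). Without control 2, 1 control count was left, and the ratio of GF to control was 27.7 (exact 95% counting interval 4.81 to 1108) and that of FO to control 109 (19.4 to 4311). The fitted log2 fold change was 4.82 in FO and 2.97 in GF without control 1, 2.97 in GF without GF 3 and GF 4, and 4.75 in FO and 2.83 in GF with counts thinned to the lowest total. ADAMTS8 fell in GF against FO (log2 fold change -1.83 ± 0.47, adjusted p = 0.012), with -2.46 without GF 3 and GF 4. This call was lost without FO 4 (adjusted p = 0.0545). ADAMTS8 and ADAMTS15 are neighbours on chromosome 9 (57090313 to 57113077 and 57127527 to 57152550), 14.4 kb apart with no protein-coding gene between them. ADAMTS1 and ADAMTS5, which both fell in GF against FO, lie 67.1 kb apart on chromosome 13 (190277175 to 190285957 and 190353019 to 190413110), with 2 protein-coding entries between them.

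The remaining proteases of this group were not called between any groups. ADAMTS9, a widely expressed versican-cutting protease, had 353 and 351 counts in control testis, 72, 114, 128 and 129 in FO and 158, 138, 16 and 93 in GF. GF 3 was the lowest library in CPM. ADAMTS9 was not called in GF against FO (log2 fold change -0.04 ± 0.43, adjusted p = 0.957) or against control testis in GF (log2 fold change -1.20 ± 0.47, adjusted p = 0.0761) or FO (log2 fold change -1.17 ± 0.47, adjusted p = 0.103). It was called lower in GF than in control testis without GF 1 or GF 3, without both GF 3 and GF 4 or without both FO 1 and GF 3 (adjusted p from 0.00844 to 0.045), and lower in FO without GF 3, without both GF 3 and GF 4, without both FO 1 and GF 3 or in a fit of these 2 groups alone (adjusted p from 4.43e-04 to 0.0192). ADAMTS4, an aggrecanase, had 20 and 49 counts in control testis, 11, 17, 19 and 8 in FO and 21, 12, 0 and 0 in GF. ADAMTS20 had 3 and 2 counts in control testis, 8, 4, 4 and 0 in FO and 1, 0, 0 and 0 in GF. ADAMTS20 was not tested.

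The procollagen N-proteinases, which remove the amino-terminal propeptide of fibrillar procollagens, were highest in control testis or in FO. ADAMTS2, the main enzyme of this kind, had 107 and 133 CPM in control testis, 47.4, 38.1, 47.2 and 54.5 CPM in FO and 46.7, 26.5, 15.9 and 17.6 CPM in GF. Both control libraries lay above all graft libraries. ADAMTS2 was lower than in control testis in FO (log2 fold change -1.36 ± 0.36, adjusted p = 0.0184) and in GF (log2 fold change -2.15 ± 0.36, adjusted p = 0.00107). The call in FO was lost without control 1, control 2 or FO 2 (adjusted p from 0.0559 to 0.191). Between GF and FO it was not called (log2 fold change -0.80 ± 0.34, adjusted p = 0.0908), but it was called lower in GF without GF 1 (adjusted p = 0.00895). ADAMTS3, which also processes VEGF-C, had 21.1 and 16.3 CPM in control testis, 33.4, 20, 18.5 and 20.1 CPM in FO and 10.9, 12.8, 8.63 and 6.91 CPM in GF. All GF libraries lay below all others, and FO 1 was the highest. ADAMTS3 fell in GF against FO (log2 fold change -1.21 ± 0.34, adjusted p = 0.0197). That call was lost without FO 1 or without both FO 1 and GF 3 (adjusted p = 0.0919 and 0.105). ADAMTS14 had 39 and 28 counts in control testis, 7, 1, 0 and 3 in FO and 4, 5, 0 and 0 in GF. ADAMTS14 was tested against control testis only and was not called in GF (log2 fold change -3.34 ± 1.19, adjusted p = 0.0541) or FO (log2 fold change -2.95 ± 1.17, adjusted p = 0.0984). It was called lower without GF 3 and GF 4 (adjusted p = 0.0398) in GF, and without GF 4, without both GF 3 and GF 4, without both FO 1 and GF 3 or in a fit of these 2 groups alone (adjusted p from 0.00462 to 0.0467) in FO. ADAMTS14 had enough counts to be tested only through the control libraries, where it was highest. These fits therefore give no independent support for a difference.

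Among the other ADAMTS proteases, ADAMTS12 was low in both grafts. ADAMTS12, which cuts cartilage oligomeric matrix protein, had 45.5 and 37.9 CPM in control testis, 1.95, 3.48, 4.19 and 3.81 CPM in FO and 6.64, 5.24, 5.87 and 5.88 CPM in GF. The control libraries lay far above every graft library. ADAMTS12 was lower than in control testis in FO (log2 fold change -3.61 ± 0.40, adjusted p = 6.05e-05) and in GF (log2 fold change -2.81 ± 0.39, adjusted p = 2.94e-04), and between GF and FO it was not called (log2 fold change 0.80 ± 0.48, adjusted p = 0.23). ADAMTS19 had 8.57 and 4.99 CPM in control testis, 29.3, 20.9, 23.1 and 30.7 CPM in FO and 5.36, 5.96, 6.56 and 5.88 CPM in GF. FO libraries lay above all others, and GF overlapped control testis. ADAMTS19 fell in GF against FO (log2 fold change -2.12 ± 0.32, adjusted p = 7.46e-04) and was higher in FO than in control testis (log2 fold change 1.94 ± 0.41, adjusted p = 0.00582). The call against control testis was lost without control 2 (adjusted p = 0.133). ADAMTS17, which is tied to fibrillin microfibrils, had 26.1 and 25.2 CPM in control testis, 28.7, 17, 18 and 28.4 CPM in FO and 8.36, 6.68, 4.49 and 19.7 CPM in GF. It was lower in GF than in control testis (log2 fold change -1.40 ± 0.48, adjusted p = 0.0471). It was not called without control 1, control 2, FO 1, FO 2, FO 3, FO 4, GF 1, GF 2 or GF 3, without both FO 1 and GF 3, with RLE factors, with total-count scaling, in a fit of these 2 groups alone or with counts thinned to the lowest total (adjusted p from 0.0521 to 0.192). Between GF and FO ADAMTS17 was not called (log2 fold change -1.24 ± 0.46, adjusted p = 0.0576), but it was called lower in GF without GF 4, without both GF 3 and GF 4, in DESeq2's Wald test or in a fit of all 10 libraries (adjusted p from 0.00197 to 0.034).

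Low counts limited the rest of this group. ADAMTS7, which shares substrates with ADAMTS12, had 37 and 47 counts in control testis, 5, 6, 7 and 21 in FO and 24, 38, 16 and 19 in GF. It was not called in any comparison, although it was called higher in GF than in FO without FO 4 or in DESeq2's Wald test (adjusted p = 0.0357 and 0.038) and lower in FO than in control testis without FO 4, without both GF 3 and GF 4 or in a fit of these 2 groups alone (adjusted p from 0.0234 to 0.0319). ADAMTS6 had 29 and 21 counts in control testis, 30, 30, 40 and 34 in FO and 13, 22, 8 and 27 in GF. ADAMTS6 was called, among the libraries left out, without GF 4 (adjusted p = 0.0487), lower in GF than in FO. ADAMTS13, the protease of von Willebrand factor, had 0 and 0 counts in control testis, 0, 1, 0 and 0 in FO and 0, 7, 4 and 13 in GF. Counts of ADAMTS13 reached at most 1 outside GF. ADAMTS16 had 2 and 9 counts in control testis, 0, 0, 0 and 0 in FO and 5, 0, 15 and 0 in GF. All 4 FO libraries and GF 2 and GF 4 were at 0 for ADAMTS16. Neither gene was tested, nor were ADAMTS10 and ADAMTS18, which had at most 8 and 5 counts in a library.

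The ADAMTS-like proteins carry no protease domain, and some of them bind microfibrils. Of 4 tested, 1 fell and 1 rose in GF against FO, beside 13% and 17.6% of all genes tested. ADAMTSL1 had 1.48 and 1.51 CPM in control testis, 27.3, 12, 11.1 and 24.2 CPM in FO and 5.36, 2.35, 6.56 and 9.68 CPM in GF. Every graft library lay above both control libraries, and FO was above GF without overlap. ADAMTSL1 was higher in FO than in control testis (log2 fold change 3.61 ± 0.71, adjusted p = 0.00341) and fell in GF against FO (log2 fold change -1.65 ± 0.50, adjusted p = 0.0266), with -2.29 without GF 3 and GF 4. The call in FO was lost without control 1 or control 2 (adjusted p = 0.0556 and 0.0619). The call between the grafts was lost without FO 1, FO 4 or GF 2 or without both FO 1 and GF 3 (adjusted p from 0.0512 to 0.122). In GF it was higher than in control testis (log2 fold change 1.95 ± 0.67, adjusted p = 0.0464). The call did not hold without control 1, control 2, FO 1, FO 2, FO 3, FO 4, GF 1, GF 3 or GF 4, without both GF 3 and GF 4, without both FO 1 and GF 3, with low genes kept, in a fit of these 2 groups alone or with counts thinned to the lowest total (adjusted p from 0.0507 to 0.239). The fitted value was 1.31 without GF 3 and GF 4 and 2.57 with thinned counts. ADAMTSL2, which binds the latent TGF-beta binding protein LTBP1, had 1.48 and 2.42 CPM in control testis, 2.23, 0.653, 3.15 and 5.51 CPM in FO and 11.8, 5.24, 12.4 and 29.7 CPM in GF. GF 4 was the highest, and GF 2 lay below FO 4. ADAMTSL2 rose in GF against FO (log2 fold change 2.34 ± 0.67, adjusted p = 0.021), with 1.51 without GF 3 and GF 4. This call was lost without FO 1, FO 2 or GF 4, without both GF 3 and GF 4 or without both FO 1 and GF 3 (adjusted p from 0.0509 to 0.0958). It was also higher in GF than in control testis (log2 fold change 2.89 ± 0.87, adjusted p = 0.0271), with 2.08 without GF 3 and GF 4. That call was lost without control 1 or control 2 (adjusted p = 0.208 and 0.148). ADAMTSL3 had 38 and 41 counts in control testis, 25, 30, 30 and 48 in FO and 27, 20, 0 and 0 in GF. ADAMTSL4 had 11 and 21 counts in control testis, 34, 25, 25 and 22 in FO and 21, 16, 10 and 43 in GF. Neither was called, except that ADAMTSL4 was called higher in FO than in control testis without both GF 3 and GF 4 or in a fit of these 2 groups alone (adjusted p = 0.0463 and 0.0331). ADAMTSL5 had 2 and 5 counts in control testis, 6, 2, 7 and 9 in FO and 4, 5, 13 and 0 in GF. ADAMTSL5 was not tested.

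**Figure D4:**
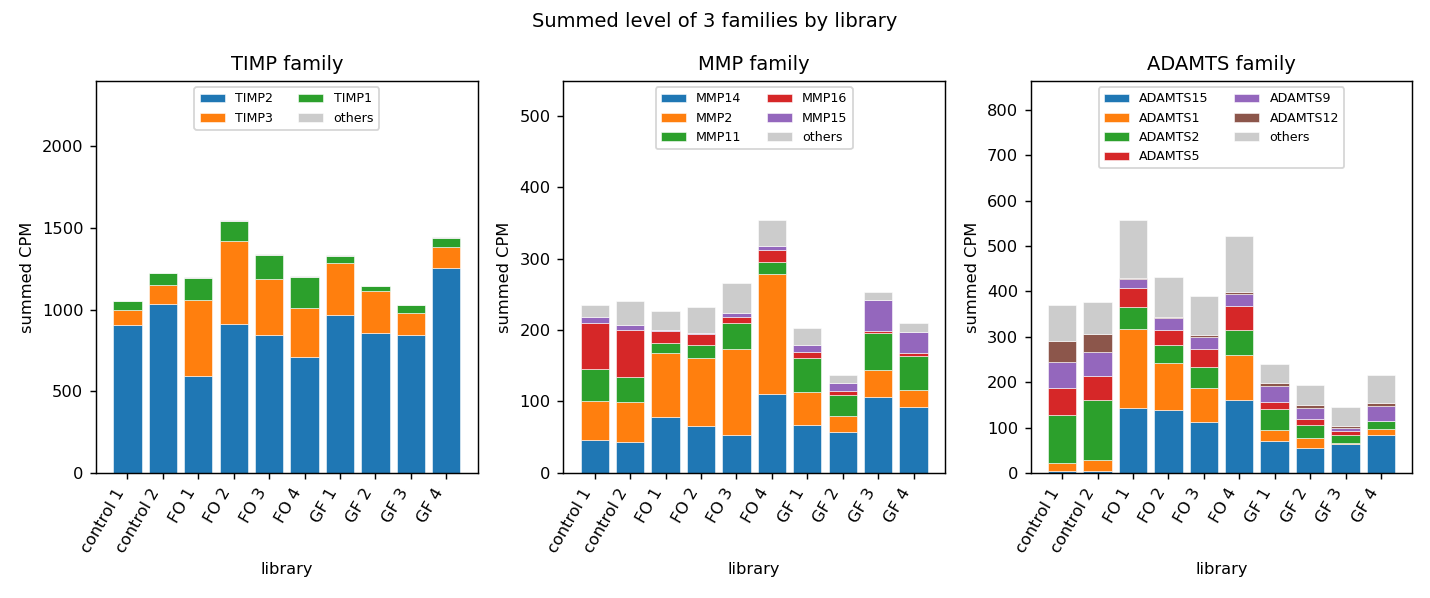
Summed CPM of the TIMP, MMP and ADAMTS families (stacked bars, from 0) in each library, with the most abundant members in colour and the others in grey. The ADAMTS bars are lowest in the 4 GF libraries (145 to 240.5 CPM), and ADAMTS15 takes 25.7 to 44.2% of the ADAMTS bar in the graft libraries and at most 1.00% in control testis.

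Summed over each family, the ADAMTS proteases were lowest in GF. The ADAMTS sum was 369 and 377 CPM in control testis, 557, 431, 389 and 521 CPM in FO and 240.5, 193, 145 and 217 CPM in GF, and every GF library lay below every other library. The MMP sum was 236 and 240.4 CPM in control testis, 226, 233, 266 and 354 CPM in FO and 203, 137, 254 and 209.5 CPM in GF, and the TIMP sum 1053 and 1226 CPM in control testis, 1199, 1548, 1339 and 1206 CPM in FO and 1332, 1142, 1027 and 1445 CPM in GF, both with overlap between GF and FO. The ADAMTSL sum was 11.4 and 14.1 CPM in control testis, 47.7, 25, 27.3 and 46.4 CPM in FO and 28.3, 15, 26.9 and 54.3 CPM in GF, with control testis below all graft libraries. Counts at 3' ends do not grow with transcript length, but ratios between genes are compared here only from library to library and were chosen after their values were seen. The ratio of the TIMP sum to the MMP sum was 4.47 and 5.1 in control testis, 5.3, 6.66, 5.03 and 3.41 in FO and 6.56, 8.35, 4.05 and 6.9 in GF, and the groups overlapped. The ratio of MMP14 to MMP2 was 0.868 and 0.797 in control testis, 0.875, 0.69, 0.447 and 0.652 in FO and 1.47, 2.65, 2.83 and 3.94 in GF, with all GF libraries above all others. The ratio of TIMP2 to TIMP1 was 16.8 and 14.1 in control testis, 4.49, 7.43, 5.84 and 3.81 in FO and 21, 30.9, 17.4 and 22.8 in GF, again with GF above all others and FO below them. Within the MMPs, MMP16 held 27.4 and 27.6% of the CPM in control testis and at most 7.39% in any graft library. In the ADAMTS family, ADAMTS2 held 29 and 35.3% in control testis, 8.50 to 12.1% in FO and 8.13 to 19.4% in GF.

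Markers of other cell types differed between the same groups. Fibroblast markers summed to 4259 and 4278 CPM in control testis, 3802 to 5906 CPM in FO and 1476 to 2663 CPM in GF, with no overlap between the grafts. Of these 6 markers, 5 fell and 1 rose in GF against FO, and none was at 0 throughout a group. Of 8 Sertoli cell markers 4 rose and 1 fell in GF: CLU had 13699 to 43933 CPM in GF, highest in GF 3 and GF 4, and the other 7 together had 903 to 1426 CPM in GF, 454 to 713 CPM in FO and 1179 and 1282 CPM in control testis. Peritubular myoid and smooth muscle markers summed to 355 and 411 CPM in control testis, 210.1 to 346 CPM in FO and 584 to 837 CPM in GF, and 4 of 6 rose in GF against FO. Macrophage markers summed to 256 and 323 CPM in control testis, 22.8 to 119.5 CPM in FO and 4.83 to 8.36 CPM in GF, with 3 of 3 tested markers lower in GF than in FO. Of 5 tested endothelial markers 1, EMCN, fell (50.5 to 79.6 CPM in FO, 1.04 to 11.8 CPM in GF), and the other 5 of the list summed to 24.8 to 111 CPM in FO, 20.2 to 44.2 CPM in GF and 213 and 221 CPM in control testis. Leydig cell markers summed to 1404 to 3049 CPM in GF, and 5 of 6 were lower in each graft than in control testis. Erythroid markers, at 3206 and 4095 CPM in control testis, summed to 5.0 to 34.1 CPM in FO and 5.88 to 7.4 CPM in GF. The part of these cell types in the member results was not tested. GF 3 and GF 4 both lay below GF 1 and GF 2 for 9 of the 30 tested members (30%, against 33.4% of all genes tested), and both above them for 7 (23.3%, against 25.1%). ADAMTS4, ADAMTSL3 and MMP24 had no count in GF 3 or GF 4, with 3 counts corresponding to at most 1.04 CPM there.

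Other genes that act with these proteases were taken from lists of related functions and read in GF against FO, where 17.6% of all genes tested rose and 13% fell. Of the plasminogen activation genes, which feed plasmin into MMP activation, 2 of 7 tested rose and 2 fell. SERPINE2, an inhibitor of plasminogen activators, rose (log2 fold change 1.93 ± 0.41, adjusted p = 0.00444), and so did SERPINA5, the protein C inhibitor (log2 fold change 1.07 ± 0.35, adjusted p = 0.0371). ANXA2 (log2 fold change -1.42 ± 0.29, adjusted p = 0.00349) and its partner S100A10 (log2 fold change -2.27 ± 0.38, adjusted p = 0.00133), which hold plasminogen at the cell surface, fell. The SERPINA5 call was lost without FO 1, FO 2, FO 4, GF 3 or GF 4, without both GF 3 and GF 4 or without both FO 1 and GF 3 (adjusted p from 0.0582 to 0.198). Among the other inhibitors and activators, 2 of 14 rose and 3 fell. PCSK6, a proprotein convertase, rose (log2 fold change 1.90 ± 0.33, adjusted p = 0.00167), as did BSG, an inducer of MMPs (log2 fold change 1.16 ± 0.35, adjusted p = 0.0266), while FURIN (log2 fold change -1.01 ± 0.33, adjusted p = 0.0381) and THBS2 (log2 fold change -0.98 ± 0.32, adjusted p = 0.0363) fell. The BSG, FURIN and THBS2 calls were each lost without 1 or more single libraries: BSG without FO 1, FO 2, FO 4, GF 3 or GF 4, without both GF 3 and GF 4 or without both FO 1 and GF 3 (adjusted p from 0.0563 to 0.237), FURIN without FO 1, FO 2, FO 3, FO 4, GF 1 or GF 2, without both FO 1 and GF 3, with total-count scaling or with counts thinned to the lowest total (adjusted p from 0.0526 to 0.132) and THBS2 without FO 1, FO 2, FO 3, FO 4, GF 2, GF 3 or GF 4, without both GF 3 and GF 4, without both FO 1 and GF 3, with total-count scaling or with counts thinned to the lowest total (adjusted p from 0.0542 to 0.156). The BSG value was 0.36 without GF 3 and GF 4. A test against a fold of 1.5 also ended the calls of SERPINA5, BSG, FURIN and THBS2 (adjusted p from 0.0958 to 0.151).

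Genes of the list of proteoglycans, their link proteins and COMP were mostly lower in GF: 5 of 8 tested fell and 1 rose, with a median log2 fold change of -1.58 against -0.02 for all genes. VCAN (versican) fell (log2 fold change -2.23 ± 0.47, adjusted p = 0.0045), as did its link protein HAPLN1 (log2 fold change -2.55 ± 0.47, adjusted p = 0.00222) and the small proteoglycan DCN (log2 fold change -2.06 ± 0.34, adjusted p = 0.00117), which is also one of the fibroblast markers above. COMP, a substrate of ADAMTS7 and ADAMTS12 and one of the cartilage markers, rose: it had no count in any control or FO library and 6.22, 8.30, 108 and 13.5 CPM in GF 1 to GF 4. The other 5 cartilage markers together had 0.691 to 5.05 CPM in GF, 4.4 to 9.11 CPM in FO and 11.5 and 14.5 CPM in control testis. Of 13 microfibril proteins, 4 fell: LTBP1 (log2 fold change -1.94 ± 0.37, adjusted p = 0.00266), LTBP2 (log2 fold change -1.91 ± 0.34, adjusted p = 0.0019), FBLN2 (log2 fold change -3.09 ± 0.54, adjusted p = 0.00173) and EFEMP1 (log2 fold change -1.86 ± 0.46, adjusted p = 0.00957). The FBLN2 value was -2.38 without GF 3 and GF 4, and the EFEMP1 call was lost without FO 1 and GF 3 (adjusted p = 0.0851).

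In the other protease families the called genes were lower in GF, beside 30.5% of all genes tested called and 13% called lower. Of 9 ADAM genes, ADAM12 (log2 fold change -2.0 ± 0.56, adjusted p = 0.0183) and ADAM17 (log2 fold change -1.51 ± 0.36, adjusted p = 0.00834), which sheds growth factors and cytokines, fell. Without GF 3 and GF 4 the ADAM12 value was -1.35, and calls were lost for ADAM12 without FO 4 or without both FO 1 and GF 3 (adjusted p = 0.0548 and 0.0837) and for ADAM17 without FO 1 and GF 3 (adjusted p = 0.0603). Of 14 lysosomal cathepsin and cystatin genes, 4 fell: CTSB (log2 fold change -1.12 ± 0.22, adjusted p = 0.00319), CTSH (log2 fold change -1.27 ± 0.32, adjusted p = 0.0105), CTSS (log2 fold change -1.89 ± 0.42, adjusted p = 0.00604) and the inhibitor CST6 (log2 fold change -1.56 ± 0.35, adjusted p = 0.00605). The CTSS call was lost without both GF 3 and GF 4 or without both FO 1 and GF 3 (adjusted p = 0.071 and 0.0637), and those of CTSH and CST6 were lost without FO 1 and GF 3 (adjusted p = 0.0689 and 0.0519). PCOLCE2, an enhancer of procollagen processing, was the 1 of 3 tested genes of the BMP1 group that fell (log2 fold change -2.68 ± 0.72, adjusted p = 0.0155), with -1.85 without GF 3 and GF 4 and no call without FO 1 (adjusted p = 0.0582). Of 7 stromal serine proteases and inhibitors, PRSS23 (log2 fold change -1.10 ± 0.34, adjusted p = 0.0282) and SPINT2 (log2 fold change -1.02 ± 0.29, adjusted p = 0.0192) fell, and these calls were lost without FO 1, FO 2, FO 4, GF 3 or GF 4, without both FO 1 and GF 3 or with total-count scaling (adjusted p from 0.0574 to 0.156) and without FO 1, FO 2 or FO 4 or without both FO 1 and GF 3 (adjusted p from 0.0547 to 0.071). Of 16 transcription factor and cytokine genes known to act on protease genes, 3 fell: FOSL2, a subunit of AP-1 (log2 fold change -1.36 ± 0.30, adjusted p = 0.00531), IL6 (log2 fold change -2.62 ± 0.76, adjusted p = 0.0224) and TGFB2 (log2 fold change -0.99 ± 0.23, adjusted p = 0.0083). The IL6 call was lost without FO 1, FO 2 or FO 4 or without both FO 1 and GF 3 (adjusted p from 0.0554 to 0.0983). A test against a fold of 1.5 ended the calls of PRSS23, SPINT2 and TGFB2 (adjusted p = 0.107, 0.102 and 0.0758).

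The remaining genes with the lowest p in those lists were not called: ADAM9 (log2 fold change -0.43 ± 0.29, adjusted p = 0.276), ADAM33 (log2 fold change -0.87 ± 0.55, adjusted p = 0.251), the procollagen C-proteinase BMP1 (log2 fold change -0.16 ± 0.35, adjusted p = 0.757), PCOLCE (log2 fold change -0.93 ± 0.73, adjusted p = 0.358), the fibroblast protease FAP (log2 fold change -0.64 ± 0.34, adjusted p = 0.179), HTRA4 (log2 fold change -1.07 ± 0.61, adjusted p = 0.205) and FOS, the partner of JUN in AP-1 (log2 fold change 2.04 ± 0.74, adjusted p = 0.0558). HTRA4 was called lower without GF 1 (adjusted p = 0.0226), and FOS was called higher without GF 1 or GF 2, in DESeq2's Wald test, with total-count scaling, in a fit of all 10 libraries or with counts thinned to the lowest total (adjusted p from 0.0167 to 0.0484).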

How the data were processed

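QuantSeq, which reads transcript 3' ends, was run on polyA RNA isolated with Trizol, per the labels' protocols. The deposited values are raw read counts by gene name (27376 rows), and each of the 10 columns was matched to 1 sample by its title. Sscrofa11.1 and DESeq2 1.42.0 appear in the submitters' processing notes without a role. The aligner is not given in the sources used here, and neither is the counter or the use of strand, so that antisense or overlapping genes may share counts. Total counts ran from 2915534 to 7013911, which sets the precision of low members.

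Low genes were dropped by filterByExpr at a minimum count of 10, and TMM factors scaled the libraries. The main test was the robust quasi-likelihood F test of edgeR 4.0.16 (with limma 3.58.1 in R 4.3.3), and the SE is the size of the log2 fold change over the square root of F. A gene was called at a Benjamini-Hochberg adjusted p under 0.05 over all genes tested. The 8 graft libraries entered GF against FO. Comparisons with control testis used 1 fit of the 10 libraries, since the control group has 2. The scripts were tested on simulated data.

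Values in every library are given for TIMP1 to TIMP4 and for members called in at least 1 comparison with a mean of at least 5 CPM in the highest group, and for the others by counts; MMP14 was added for its role beside MMP2. Of each list of related genes, up to 4 tested genes with the lowest p in GF against FO are named. Members, lists and cell type markers were chosen with earlier results of these data known. All 47 names were matched to the RefSeq table of Sscrofa11.1 for positions.

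Alternatives were the Wald test of DESeq2 1.42.0, scaling by RLE factors or by total counts, keeping low genes, adding the replicate number to the fit, changing which libraries were fitted, testing against a fold of 1.5, dropping robust estimation, dropping mitochondrial and haemoglobin genes, and thinning to the lowest total. Others left out each library in turn, GF 3 with GF 4, or FO 1 with GF 3. Each library was counted as 1 replicate. Libraries of a group differed by more than counting noise, but this does not show that they are independent samples. The labels name no sequencing batch.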

Additional observations from a re-analysis of the deposited data

Results flagged for a closer look

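Within a group of 4 libraries, 6 of 60 checks of a member found 1 library far from the other 3 by Dixon's criterion, where chance gives about 1 in 20. ADAMTS3 had 33.4 CPM in FO 1, and 18.5 to 20.1 CPM in the other libraries of that group. ADAMTS7 had 4.45 CPM in FO 4, and 1.31 to 1.47 CPM in the other libraries of that group. ADAMTSL4 had 9.48 CPM in FO 1, and 4.66 to 5.44 CPM in the other libraries of that group. MMP16 had 9.65 CPM in FO 3, and 15.7 to 16.7 CPM in the other libraries of that group. ADAMTSL4 had 14.9 CPM in GF 4, and 2.89 to 4.5 CPM in the other libraries of that group. MMP11 had 30.1 CPM in GF 2, and 48 to 51.4 CPM in the other libraries of that group. FO 1 was the far library for ADAMTS3 and ADAMTSL4. The ADAMTS3 and MMP11 calls in GF against FO, and the changes when the far library is left out, are given with those genes.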

How the results depend on the processing

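Counts of called members moved most with the libraries included. In GF against FO, 13 lower became 6 in a test against a fold of 1.5, 6 without FO 1 and GF 3, and 8 to 15 when 1 library was left out. The 3 higher became 1 without GF 3 and GF 4, 0 without FO 1 and GF 3 (2 at an unadjusted p under 0.05 in edgeR), and 1 to 3 when 1 library was left out. Of all genes, 30.5% were called in the main fit and 17.8% against a fold of 1.5. That share was 36.1% without GF 3 and GF 4 and 16.6% without FO 1 and GF 3. It was 20.1 to 34.2% when 1 library was left out. In GF against control testis, 4 higher became 2 in a fit of these 2 groups alone. They became 3 to 5 when 1 graft library was left out, and were fewer without control 1 or control 2. The 5 lower became 8 without GF 3 and GF 4. Of all genes, 25.8% were called in the main fit, 14.4% in that of 2 groups and 37.1% without GF 3 and GF 4. Without 1 graft library the share was 22.4 to 30%. In FO against control testis, 3 lower became 8 in a fit of these 2 groups alone. They became 7 without GF 3 and GF 4 and 5 without FO 1 and GF 3. The 9 higher became 7 to 9 when 1 graft library was left out, and were fewer without control 1 or control 2. Of all genes, 18.7% were called in the main fit and 45.6% in that of 2 groups. That share was 42.5% without GF 3 and GF 4 and 18.4% without FO 1 and GF 3. It was 13 to 25.4% without 1 graft library. Over all genes, 6600 were called in the fit of FO and control testis alone and 6510 without GF 3 and GF 4, against 2972, and 2201 in the fit of GF and control testis alone, against 4091. The cause was not tested. Scaling by total counts shifted the median of all genes in GF against FO to 0.12, with 68.8% of calls higher against 57.5%, and left 3 members higher and 11 lower. With that scaling 29.2% of all genes were called. Deviations of same-numbered FO and GF libraries correlated at 0.06, 0.22, 0.08 and 0.10 across genes, and 2 of 4 GF libraries correlated best with their own number. With 4 libraries in a group, these values cannot settle whether the replicate numbers pair the samples. With a replicate block, 3 members were higher and 14 lower in GF against FO, 3 and 5 in GF against control testis, and 8 and 4 in FO against control testis. Of all genes, 31.5%, 20.7% and 20.3% were called in these 3 comparisons. With that block ADAMTSL1 and ADAMTSL2 were not called in GF against control testis (adjusted p = 0.11 and 0.0856, with a log2 fold change of 1.86 for ADAMTSL2), nor ADAMTS2 and MMP2 in FO against control testis (adjusted p = 0.058 and 0.0972) or IL6 between the grafts (adjusted p = 0.053), and MMP24 had 4.23 in FO against control testis. ADAMTS17 was called lower in GF than in FO (adjusted p = 0.0202), TIMP3 higher in GF than in control testis (adjusted p = 0.00474), and MMP11 and MMP15 lower in FO than in control testis (adjusted p = 0.0286 and 0.0247). The log2 fold change of uncalled members (and of the related gene BMP1) changed sign in GF against FO for ADAMTS4 (0.073 without GF 3 and GF 4), ADAMTS9 (0.11 with total counts, 0.23 without GF 3 and GF 4, 0.19 without FO 1 and GF 3, -0.25 to 0.28 leaving out 1 library), ADAMTSL4 (-0.25 with the replicate block, -0.10 thinned, -0.75 without GF 3 and GF 4, -0.76 to 0.33 leaving out 1 library), BMP1 (-0.30 to 0.11 leaving out 1 library), MMP14 (-0.31 without GF 3 and GF 4, -0.085 without FO 1 and GF 3, -0.097 to 0.32 leaving out 1 library) and MMP19 (-0.060 without FO 1 and GF 3, -0.38 to 0.62 leaving out 1 library). It changed sign in GF against control testis for ADAMTS1 (0.10 without GF 3 and GF 4), ADAMTS19 (0.027 thinned, -0.56 to 0.23 leaving out 1 library), ADAMTS6 (-0.057 with the replicate block, -0.14 thinned, -0.23 without GF 3 and GF 4, -0.30 to 0.53 leaving out 1 library), ADAMTS7 (0.19 thinned), MMP11 (-0.11 with the replicate block, -0.057 without GF 3 and GF 4, -0.063 to 0.33 leaving out 1 library), MMP24 (-0.091 thinned), MMP28 (0.12 thinned), TIMP2 (-0.030 with no filter, -0.051 with the replicate block, -0.11 without GF 3 and GF 4, -0.12 to 0.089 leaving out 1 library) and TIMP4 (0.26 without FO 1 and GF 3, -1.01 to 0.25 leaving out 1 library). It did so in FO against control testis for ADAMTS4 (0.17 with the replicate block, 0.16 thinned) and ADAMTSL2 (-0.51 with the replicate block). Depth limits 15 members in GF against FO, which had too few counts for a test.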
